A study of Pararge aegeria with 4 samples.

Results

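The small RNA machinery of the ovary of the Speckled Wood butterfly, Pararge aegeria, is described here through the Argonaute, Dicer and partner genes found in its transcriptome. Members were the contigs with argonaute, piwi, aubergine, dicer, drosha, pasha, loquacious, exportin 5 (with a space or a hyphen), spindle E, armitage or maelstrom in any annotation column. This found 21 of 17636 contigs, which fall into 10 of 9873 Trinity genes, a Trinity gene being the set of contigs that the assembler placed together. The terms drosha, pasha and spindle E matched 0 contigs.

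The study sequenced ovary RNA from females of St Hubert, in Belgium, and of Zonza, on Corsica. Each population was a laboratory-reared stock, long kept in the laboratory for St Hubert and newly founded for Zonza, and the ovaries of a pair of females were pooled at the peak of egg production. Each population gave 1 mRNA library, so population, rearing history and library cannot be told apart, and no difference below has a replicate check. No treatment was applied to either group. Levels are FPKM, fragments mapped to a contig scaled to its length and to the depth of the library, summed over all contigs of a Trinity gene. Log2 ratios, and the calls past a fold made from them, are on FPKM plus a pseudocount of 1, Zonza over St Hubert. Folds and ratios printed with an interval are on FPKM without the pseudocount, so they can exceed a threshold that the call does not reach.

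Small RNAs guide Argonaute proteins to matching RNAs. In the microRNA (miRNA) branch, Drosha and Pasha cut hairpin precursors in the nucleus, exportin-5 carries them out, Dicer with its partner Loquacious cuts them again, and Argonaute 1 holds the product. In the small interfering RNA (siRNA) branch, known in insects for defence against viruses, Dicer cuts long double-stranded RNA for Argonaute 2, whereas the Piwi-interacting RNA (piRNA) branch needs no Dicer and silences transposable elements in the germline through Piwi, Aubergine and Argonaute 3.

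All 10 genes passed the minimum mean of 1 FPKM. Of these 10 genes, 0 were past 2-fold between the libraries, against 10.3% of the 9459 Trinity genes that passed the minimum. At a threshold of 1.5-fold 1 gene, armitage, was past it, against 23.5% of all genes. Without the pseudocount, a setting added after the values were seen, exportin-5 and the short Argonaute 1 gene were also past 1.5-fold, giving 3 members against 27.7% of all genes. The short Argonaute 1 gene rested on 8 and 13 fragments. The median log2 ratio was -0.16 over the 10 genes and -0.01 over all genes, with 4 members higher in Zonza and 6 higher in St Hubert. The median level of the members was 18.8 FPKM in St Hubert and 15.8 FPKM in Zonza, and that of all genes was 18.8 FPKM in both.

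The values allow the fragments behind them to be counted. The FPKM of genes with 1 contig fell on steps that correspond to about 21600000 mapped fragments in St Hubert and 20300000 in Zonza, and 98.2% and 98.1% of the values tested then came out whole within 0.1 fragment. The 95% intervals below rest on these fragments and cover counting error only, not the variation between females. Summed marker levels of follicle cells and fat body differed between the libraries. The 17 follicle cell genes summed to 3271.9 FPKM in St Hubert and 10828.0 FPKM in Zonza, and 6 fat body genes to 2994.1 and 7214.5 FPKM. The paper describes the dissected ovaries as cleared of fat, and whether other tissue was carried over was not tested. The sums for 6 germline genes were 1501.6 and 1193.8 FPKM, for 13 muscle genes 634.2 and 609.4 FPKM, and for 7 haemocyte genes 73.8 and 69.2 FPKM. The germline list includes vasa, which is also a piRNA partner below. Among all these markers, 1 muscle gene was listed at 0, in Zonza, and the part of the cell make-up in the ratios below was not tested. In such pooled tissue, fewer cells of a type and less RNA per cell cannot be told apart.

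**Figure D1:**
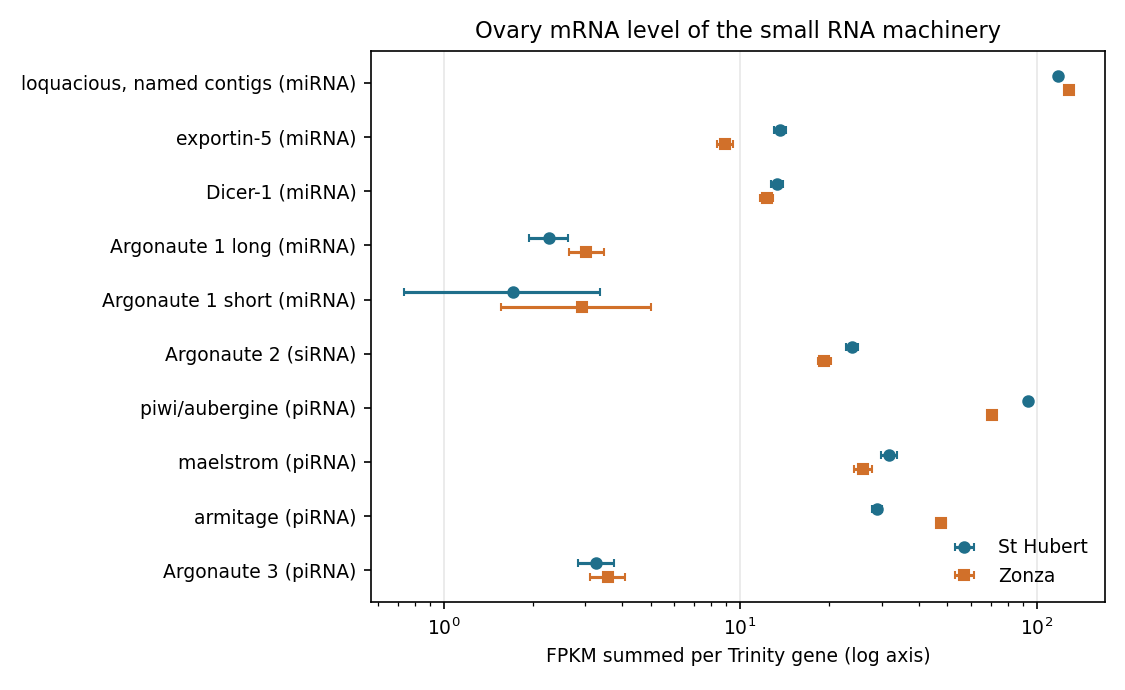
FPKM of each member gene (x axis, log scale) in the St Hubert (circles) and Zonza (squares) libraries, with 95% counting intervals as bars and the branch in parentheses. Loquacious is shown by its 2 named contigs. Argonaute 1 and Argonaute 3 lie lowest, between 1.71 and 3.59 FPKM, and loquacious and piwi/aubergine highest, from 70.96 to 128.79 FPKM.

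In the miRNA branch, exportin-5 (c20206_g3), the carrier of hairpin precursors out of the nucleus, stood at 13.65 FPKM in St Hubert and 8.92 FPKM in Zonza. Its single contig of 6054 bases held 1746 and 1071 fragments. The level was 1.53-fold higher in St Hubert (95% counting interval 1.42 to 1.65), a log2 ratio of -0.56, the lowest of the 10 members.

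Dicer-1 is the enzyme that cuts the hairpin into a short duplex. The gene given that name (c18042_g2) had 13.35 FPKM in St Hubert and 12.29 FPKM in Zonza. The Zonza level was 0.921 of that in St Hubert (0.86 to 0.986), a small difference just outside counting error. Its 3 contigs, of 6060 to 6611 bases, had a mean similarity of 59.0 to 61.95% to their protein matches. All 3 carry the name Dicer-1 from an earlier ovary transcriptome of the species, whereas their BLASTx match is named dicer without a number. No contig was named Dicer-2, the siRNA enzyme of flies, so the place of this gene in the miRNA branch rests on the name alone.

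Loquacious (c18669_g2), a double-stranded RNA-binding partner of Dicer, is the gene whose sum is least certain. The Trinity gene holds 11 contigs, of which 2 carry the name and 9 carry none of the terms, among them uncharacterized proteins and visgun. The 11 contigs summed to 591.89 FPKM in St Hubert and 513.86 FPKM in Zonza, a log2 ratio of -0.20. The named contigs alone summed to 117.79 and 128.79 FPKM, a log2 ratio of 0.13, so the direction depends on which contigs are counted. By the named contigs the gene was among the top 5.92% and 5.41% of Trinity genes, and stood 8.82-fold (8.39 to 9.29) and 10.5-fold (9.94 to 11.1) above Dicer-1. In flies the protein also serves the siRNA branch.

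Argonaute 1, the protein that carries miRNAs, was among the lowest members. Its long Trinity gene (c15542_g1, contigs of 3455 and 3742 bases) had 2.26 FPKM in St Hubert and 3.03 FPKM in Zonza, from 174 and 213 fragments. That was 1.34-fold higher in Zonza (1.09 to 1.65). A second Trinity gene of 350 bases with the same name and component (c15542_g2) had 1.71 and 2.93 FPKM. It may be a piece of the same gene, but is counted as a separate member throughout. It rested on 8 and 13 fragments, and its ratio of 1.71 (0.658 to 4.77) could not be told from equality at this depth. The contigs of Argonaute 1 matched their protein relatives most closely, at 95.65 to 96.7% mean similarity.

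The products of this branch were counted in 1 small RNA library per population. The deposited lists hold 67 miRNAs with 373413 reads in St Hubert and 81 miRNAs with 1049925 reads in Zonza. The dominant product of a miRNA had a median length of 22 bases in both, and was 21 to 23 bases long for 53 of 67 and 65 of 81 miRNAs. Products of 21 to 23 bases held 91.1% and 92.0% of the listed reads, most of them from miR-989. The 3 miRNAs below, shown as examples of what this branch produces, were the most abundant in both libraries, with the seed (bases 2 to 8) in capitals.
miR-989: gUGUGAUGugacguaguggaag
miR-263a: aAUGGCACuggaagaauucacggg
miR-1: uGGAAUGUaaagaaguauggag
The 3' product of miR-989 had 288067 reads in St Hubert against 32 from its other arm, and 873796 against 88 in Zonza. MiR-989 made up 77.2% and 83.2% of the listed reads, miR-263a 6.65% and 6.06%, and miR-1 5.66% and 2.56%. One strand of the cut duplex thus held nearly all reads of each. Their dominant arms were 3', 5' and 3', and the seeds differ between the 3. The piRNA and siRNA reads were not analysed here.

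The siRNA branch was represented by 1 member, Argonaute 2 (c17609_g1), which cleaves RNAs that siRNAs match. It had 23.89 FPKM in St Hubert and 19.24 FPKM in Zonza, a log2 ratio of -0.30 and a ratio of 0.805 (0.751 to 0.863). Its level was 10.6-fold (9.05 to 12.4) that of the long Argonaute 1 gene in St Hubert and 6.35-fold (5.49 to 7.37) in Zonza.

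In the piRNA branch, 1 gene (c20296_g1) was named piwi by the earlier transcriptome and aubergine-like by its protein match. Both names belong to germline Argonautes, nuclear and cytoplasmic in flies, and which of them the gene is cannot be settled from the annotation. Its level was 93.52 FPKM in St Hubert and 70.96 FPKM in Zonza, 1.32-fold higher in St Hubert (1.28 to 1.36). It was the highest of the 4 piRNA genes in both libraries, among the top 7.65% and 10.9% of all Trinity genes.

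Argonaute 3 (c14838_g2), which in flies pairs with Aubergine in the cycle that amplifies piRNAs, was far lower, at 3.28 FPKM in St Hubert and 3.59 FPKM in Zonza. The 2 libraries could not be told apart at 209 and 215 fragments, with a ratio of 1.09 (0.901 to 1.33). The piwi/aubergine gene exceeded it 28.5-fold (24.9 to 32.9) in St Hubert and 19.8-fold (17.3 to 22.7) in Zonza.

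Armitage (c18262_g1), an RNA helicase needed in flies to load Piwi, had the highest log2 ratio of the members, 0.70. It had 29.01 FPKM in St Hubert and 47.71 FPKM in Zonza, a ratio of 1.64 (1.56 to 1.73). Maelstrom (c14281_g1), which acts in flies in piRNA-guided silencing in the nucleus, moved the other way, with 31.81 and 25.98 FPKM and a ratio of 0.817 (0.743 to 0.897). Its contig of 1616 bases was the only 1 of the 21 with gene silencing by RNA among its Gene Ontology terms.

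Set beside each other, the branches gave median log2 ratios of -0.11 for the 5 miRNA genes, -0.30 for the single siRNA gene and -0.09 for the 4 piRNA genes. The median level was 13.4 FPKM in St Hubert and 8.92 FPKM in Zonza for the miRNA genes, and 30.4 and 36.8 FPKM for the piRNA genes. Within each of these branches the members spread far more widely than the branches differed, from 2.93 to 514 FPKM among the miRNA genes in Zonza (to 128.79 FPKM with loquacious by its named contigs) and from 3.59 to 71.0 FPKM among the piRNA genes. The order of the genes by level was nearly the same in both libraries, with loquacious taken by its named contigs. Armitage and maelstrom exchanged places, as did exportin-5 and Dicer-1. Neighbours within counting error of each other were exportin-5 and Dicer-1 in St Hubert (ratio 1.02, 0.956 to 1.09), Argonaute 3 and the long Argonaute 1 gene in Zonza (1.18, 0.976 to 1.44), and the long and short Argonaute 1 genes in both.

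**Figure D2:**
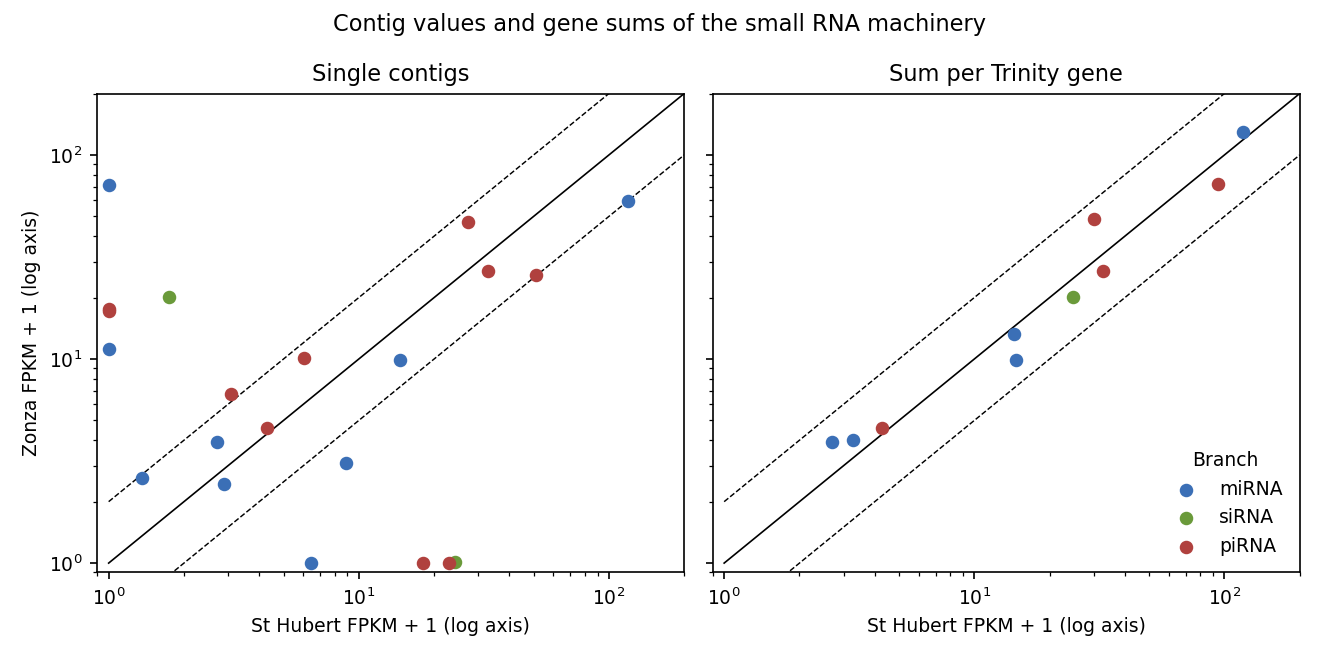
Zonza against St Hubert FPKM plus 1, both on log axes, for the 21 single contigs (left) and for the sum per gene (right, loquacious by its named contigs), coloured by branch. The solid line marks equality and the dashed lines 2-fold, and 11 contigs but 0 gene sums lie past 2-fold.

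The single contigs behaved otherwise than the sums. Of the 21 contigs, 20 had a mean of at least 1 FPKM, and 11 of these were past 2-fold, 6 higher in Zonza and 5 in St Hubert. The background was 39.7% of 16054 contigs, so contigs past 2-fold were common throughout the assembly. Of 17 member contigs with 5 FPKM or more in a library, 7 were listed at 0 in the other, 4 of them in St Hubert and 3 in Zonza, against 17.4% of 12346 contigs.

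Argonaute 2 showed the plainest exchange. Its contigs of 3756 and 3777 bases differ by 21 bases in length. The shorter had 0.75 FPKM in St Hubert and 19.23 FPKM in Zonza, and the longer 23.14 and 0.01 FPKM. The longer therefore held 96.9% of the gene's FPKM in St Hubert and 0.052% in Zonza, where 1 fragment was assigned to it against 1821 in St Hubert.

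The Dicer-1 contigs were split in the same manner. The third contig was listed at 0 in St Hubert and had 10.18 FPKM in Zonza, where it held 82.8% of the gene. The second had 5.45 FPKM in St Hubert and was listed at 0 in Zonza, and the first had 7.90 and 2.11 FPKM.

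Armitage, with 5 contigs, had 1 that held most of the St Hubert level, at 21.89 FPKM, and was listed at 0 in Zonza. A pair of others, at 16.60 and 16.25 FPKM in Zonza, were listed at 0 in St Hubert. Of the named loquacious contigs, the longer had 117.79 FPKM in St Hubert and 58.72 FPKM in Zonza, and the shorter was listed at 0 in St Hubert with 70.07 FPKM in Zonza.

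For piwi/aubergine, 1 contig had 17.02 FPKM in St Hubert and was listed at 0 in Zonza. The other contigs were present in both, with 26.31 and 46.02 FPKM for the second and 50.19 and 24.94 FPKM for the third. Argonaute 1 had 0.36 and 1.60 FPKM for its shorter contig and 1.90 and 1.43 FPKM for its longer.

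**Figure D3:**
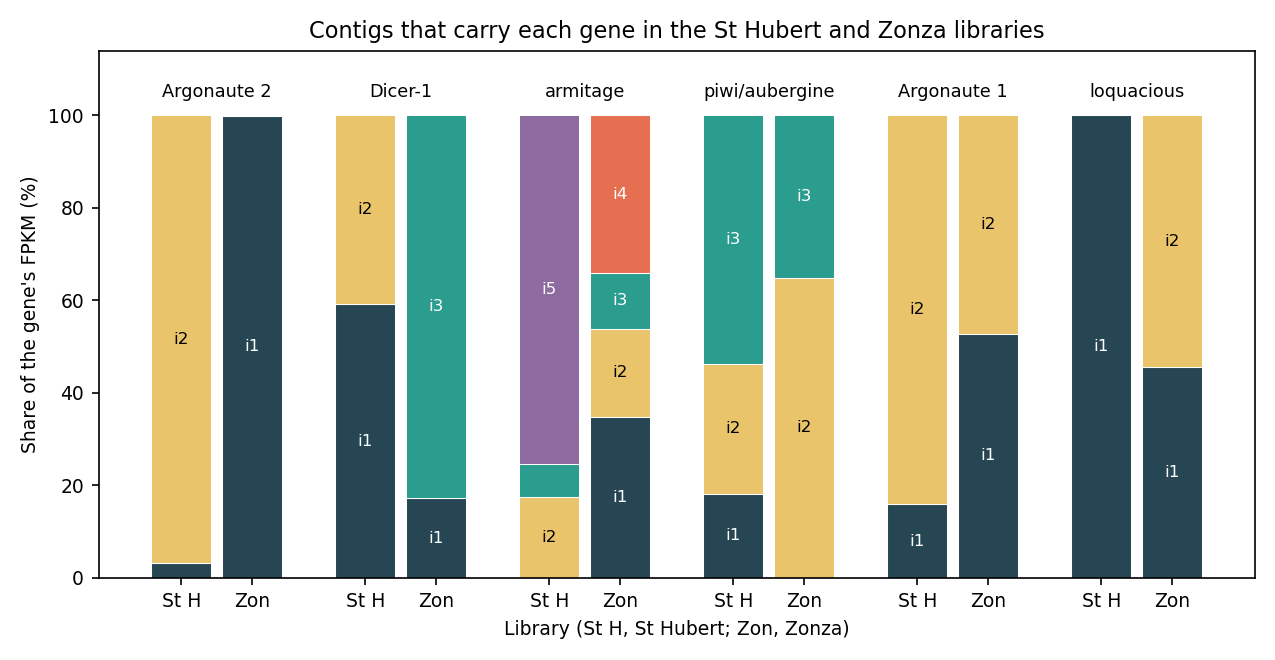
Share of each gene's FPKM (y axis, %) carried by its contigs, labelled i1 to i5, in the St Hubert (St H) and Zonza (Zon) libraries, for the 6 member genes with more than 1 contig, loquacious by its named contigs only. Argonaute 2 is almost wholly i2 in St Hubert (96.9%) and i1 in Zonza (99.9%).

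Of the 6 member genes with more than 1 contig, 4 had contigs past 2-fold in both directions and a sum within 2-fold, namely Dicer-1, loquacious, Argonaute 2 and armitage. Loquacious met this only through contigs without the name, and by the contigs that carry a term the count was 3. The background for this pattern was 37.3% of 4154 Trinity genes. Likewise 4 held a contig with 5 FPKM or more in 1 library that was listed at 0 in the other, against 35.6%. The assembly combined reads of both populations. Whether contigs of 1 gene are alleles, splice forms or assembly alternatives was not tested, since contig sequences were not used here.

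Several genes of the pathway stand in the annotation under other names and were looked up after the values had been seen. Ribonuclease 3, the name under which Drosha is often annotated, had 12.57 FPKM in St Hubert and 14.03 FPKM in Zonza (ratio 1.12, 1.03 to 1.21). Spindle-E, a helicase of the fly piRNA pathway that the rule missed because of its hyphen, had 15.16 and 15.71 FPKM (1.04, 0.976 to 1.10). These levels lie near those of exportin-5 and Dicer-1.

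A further gene annotated Dcr-1 (c19765_g4) had 5.74 and 5.14 FPKM, and a short one of the same component 0.68 and 0.93 FPKM, below the minimum. The match of c19765_g4 is named Dcr-1, at 68.15% mean similarity, against 59.0 to 61.95% for c18042_g2. Which of these genes is Dicer-1 was not tested. A gene annotated MOV-10, a helicase related to armitage, had 10.09 FPKM in St Hubert and 7.65 FPKM in Zonza. None of the 5 genes was past 2-fold.

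A list of 65 Trinity genes for other steps of the same branches gave a wider view, and 63 of them passed the minimum. Their median log2 ratio was 0.01, with 32 higher in Zonza and 31 higher in St Hubert, and 1 was past 2-fold in each direction on the scale with the pseudocount. The backgrounds were 5.2% of all genes higher in Zonza and 5.11% higher in St Hubert.

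Among the 25 miRNA partners, which include the decapping, deadenylation and P-body proteins that act on miRNA targets, 0 were past 2-fold and the median was -0.03. The highest was me31B, an RNA helicase of P bodies, with 586.86 FPKM in St Hubert and 450.47 FPKM in Zonza. Gawky, the GW182 protein that Argonaute 1 binds, was low in both of its Trinity genes, with 1.30 and 2.37 FPKM in 1 and 2.54 and 3.12 FPKM in the other.

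The 8 siRNA partners had a median log2 ratio of -0.19. Among them, the gene annotated translin-associated protein X (TRAX, c16689_g1) was summed over 7 contigs, most of which match other proteins. The sum was 674.8 FPKM in St Hubert and 465.02 FPKM in Zonza. The contig that carries the name had 68.99 and 20.1 FPKM, so alone it was past 2-fold, as were 39.7% of all contigs. The median and the count past 2-fold use the sum. The contigs named translin matched a cytochrome P450 by BLASTx. Hsp83, the Hsp90 chaperone that helps load Argonautes in flies, had 3346.53 FPKM in St Hubert and 1651.15 FPKM in Zonza and was past 2-fold, at 2.03-fold higher in St Hubert. Both genes annotated R2D2, the partner of Dicer-2 in flies, were lower in Zonza. The levels were 18.81 and 13.41 FPKM in 1, and 29.32 and 22.12 FPKM in the other. Both are short contigs, of 389 and 479 bases, with ratios of 0.713 (0.519 to 0.975) and 0.754 (0.61 to 0.931). By BLASTx the contig of 479 bases matched the same protein name as the named loquacious contigs, not R2D2. Which of these genes it belongs to was not tested. Tudor-SN, a nuclease of the silencing complex, had 100.36 FPKM in St Hubert and 163.51 FPKM in Zonza. These came from 16520 and 16402 fragments, so Tudor-SN differed far less in fragments than in FPKM. Its contig of 7858 bases had 90.88 and 15.12 FPKM. The contig of 4714 bases was listed at 0 in St Hubert and had 142.59 FPKM in Zonza.

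The 30 piRNA partners had a median log2 ratio of 0.12, with 19 higher in Zonza and 11 higher in St Hubert, against 49.3% of all genes higher in Zonza. The gene past 2-fold was THOC7, a subunit of the THO complex, which couples transcription to RNA export and in flies acts on piRNA precursors. It had 34.70 FPKM in St Hubert and 85.52 FPKM in Zonza, a ratio of 2.46 (2.22 to 2.74), from 522 and 1167 fragments. Its contigs went opposite ways, with 23.8 and 9.89 FPKM for that of 843 bases and 10.9 and 75.63 FPKM for that of 800 bases. The lowest of the genes matching PLD6 (c18639_g3), the relative of the piRNA nuclease Zucchini, had 3.07 and 7.0 FPKM. Its ratio was 2.28 (1.77 to 2.95), and it fell short of the call only through the pseudocount (log2 ratio 0.97). The other PLD6 genes did not share this direction throughout. They had 73.57 and 86.52 FPKM, 90.87 and 79.83 FPKM, and 30.33 and 23.38 FPKM in St Hubert and Zonza. All 8 Trinity genes that hold a contig annotated to THO were higher in Zonza as sums, with log2 ratios from 0.10 to 1.28, a subgroup singled out after its values were seen. In c17341_g1 the contig named THO had 13.44 and 14.76 FPKM, and most of the difference lay in contigs matching a dehydrogenase. That contig and the THOC7 contigs carry the same entry of the earlier transcriptome, so the 8 may not be separate THO genes. The contigs named THOC5 matched the kinase ULK2 by BLASTx. The highest piRNA partner was THOC4, with 210.96 and 254.53 FPKM. Vasa, the germline helicase that works with Aubergine and Argonaute 3, had 82.17 FPKM in St Hubert and 67.86 FPKM in Zonza, close to the level of piwi/aubergine. Hen1, which methylates the ends of piRNAs, had 14.34 and 13.67 FPKM.

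**Figure D4:**
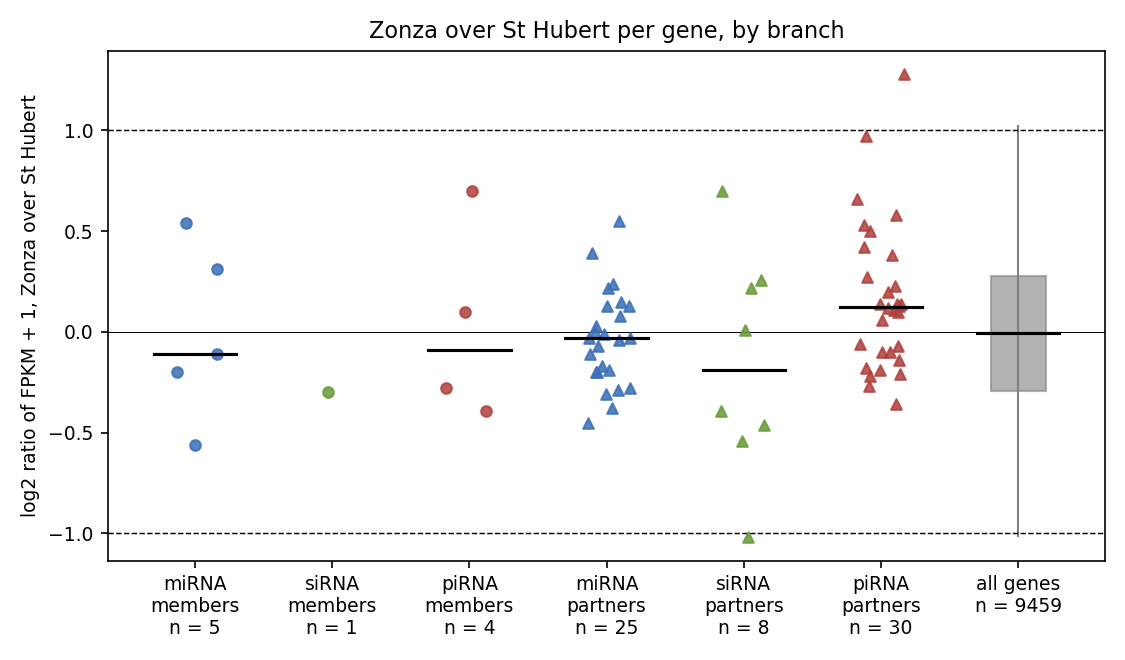
Log2 ratio of FPKM plus 1, Zonza over St Hubert (y axis), for members (circles) and partners (triangles) of each branch, with medians as black bars. The grey box spans the 25th to 75th percentile of all 9459 genes and its line the 5th to 95th, dashed lines mark 2-fold, and every member lies between -0.56 and 0.70.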

How the data were processed

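The authors pooled the reads of both mRNA libraries into 1 Trinity assembly, estimated the FPKM of each contig and population with RSEM, and kept contigs with a BLAST match. The deposited table holds these FPKM values, contig lengths and, in percent, the mean similarity of BLASTx hits. The deposited miRNA tables hold read counts per miRNA. FPKM columns named for Belgium and Corsica were taken as St Hubert and Zonza. No genome build applies.

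FPKM were summed per Trinity gene, genes with a mean below 1 FPKM were left out, and log2 ratios used a pseudocount of 1. A gene was called past 2-fold on that scale, and folds with an interval used none. With 1 library per population no test was possible, and no p-value is given. Fragments were recovered from the steps of FPKM values, and 95% intervals (Poisson for levels, exact binomial for ratios) came from them. They are approximate where RSEM split fragments between contigs. Every member is named, and among partners those past 2-fold and the highest of each branch. Gawky, R2D2, Tudor-SN, TRAX, translin, PLD6, the THO genes as a group, vasa and Hen1 were added after their values were seen. The members and lists were chosen with earlier results of these data known. The calls and intervals were tried on simulated data, with counts per gene drawn from the Poisson model that the intervals assume. That simulation leaves out fragments split between contigs and variation between females, so it cannot judge errors from these. Analyses were run in Python 3.11.15 (scipy 1.17.1, pandas 2.3.3, numpy 2.4.6) and figures drawn with matplotlib 3.10.9.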

Additional observations from a re-analysis of the deposited data

How the results depend on the processing

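In all, 15 alternatives gave 134 values. Of 67 single-gene values 7 moved beyond their counting interval, and of the 67 other values 19 moved. The number of members past 2-fold was 0, and it was 1 at a 1.5-fold threshold, 3 at 1.5-fold without the pseudocount (added after the data had been seen), 2 with the longest contig of each gene and 16 of 29 contigs with each contig on its own. The miRNA median log2 ratio of -0.11 became -0.26 with the longest contig, 0.13 with the contigs whose own annotation holds the term, and -0.45 with each contig on its own. The miRNA median level became 1.9 FPKM in St Hubert with the longest contig, and 10.6 FPKM in Zonza with genes of the same name summed. For the siRNA branch the log2 ratio of -0.30 became -4.58 with the longest contig and -0.52 with each contig, and the Zonza level became 0.01 FPKM with the longest. The piRNA median of -0.09 became -0.28 at a minimum mean of 5 FPKM, and 0.42 both with the longest contig and with each contig, while its median levels became 15.7 and 17.5 FPKM with the longest. After the data had been seen, placing Dicer-1 in the siRNA branch gave a miRNA median of 0.05. Adding the 5 genes under other names, each to its own branch if it passed the minimum, gave a piRNA median of 0.05. Of the 5, only spindle-E joined the piRNA branch, and MOV-10 was placed in the miRNA branch. The signs of the miRNA and piRNA medians thus rest on choices of contigs or genes. That of the siRNA branch stayed negative in the alternatives run. It too depends on the contig, since the Argonaute 2 contigs of 3756 and 3777 bases had log2 ratios of 3.53 and -4.58. The median over partners moved under none of the alternatives run for it. Among single genes, the longest contig gave log2 ratios of 3.48 for Dicer-1, -0.99 for loquacious, -0.26 for the long Argonaute 1 gene, -4.58 for Argonaute 2 and 0.78 for piwi/aubergine, the named contigs gave 0.13 for loquacious, and a pseudocount of 5 gave -0.42 for exportin-5. No paired analysis was possible because each population has 1 library, and no replicate could be left out. Depth limits the short Argonaute 1 gene most, with 8 and 13 fragments.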
